A study of Mus musculus with 6 samples.

Results

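The genes encoding the inhibitors of cyclin-dependent kinases were examined in mouse medulloblastoma, a malignant tumour of the cerebellum, by RNA-seq. They were Cdkn1a, Cdkn1b, Cdkn1c, Cdkn2a, Cdkn2b, Cdkn2c and Cdkn2d, taken as every transcript whose gene symbol in the deposited files equals one of these names. This gave 7 of 52550 genes and 19 of 131100 transcripts. Of the 6 medulloblastoma libraries, 3 are labelled wild type and 3 Eed mutant. Eed belongs to the core of Polycomb repressive complex 2, an enzyme complex that methylates histone H3 and silences genes, and the comparison asks which transcripts differ with the Eed genotype. The allele, any Cre driver, the event that started the tumours, and the age and sex of the mice are not given in the sources used here. Nothing in the labels says that the replicates of a group came from separate animals, so the p-values cover only the spread among these samples. Where values of 3 libraries are listed, they are in the order of replicates 1 to 3.

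Cyclin-dependent kinases drive cells from G1 into DNA synthesis, and 2 families of small proteins restrain them. The Cip/Kip family (Cdkn1a, encoding p21, Cdkn1b, encoding p27, and Cdkn1c, encoding p57) binds many cyclin-kinase complexes. The INK4 family (Cdkn2a, encoding p16Ink4a, Cdkn2b, encoding p15, Cdkn2c, encoding p18, and Cdkn2d, encoding p19Ink4d) binds Cdk4 and Cdk6 and keeps them from D-type cyclins. Cdkn2a also encodes p19Arf, which restrains Mdm2 and so protects p53. In the cerebellum, p27 and p18 are known for roles in ending the division of granule cell progenitors, the cells from which Sonic hedgehog medulloblastoma arises. Polycomb repression of Cdkn2a is a textbook case in cultured fibroblasts and stem cells, and p57 is made from the maternal allele of an imprinted cluster.

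The libraries held 26186236 to 26425111 estimated counts, and 3 counts in a library correspond to 0.1135 to 0.1146 CPM before TMM scaling. CPM values below are counts scaled to a common library size, with TMM factors. The Eed transcript itself was at 43.8, 30.1 and 35.6 CPM for the wild types and at 32.6, 36.8 and 30.7 CPM for the mutants, with an edgeR log2 fold change of -0.13 (SE 0.144, adjusted p = 0.656). The groups overlapped, so the transcript level does not separate the genotypes. A summed list of 11 granule progenitor and medulloblastoma markers was at 5351 to 5563 CPM in the wild-type and 5011 to 5592 CPM in the mutant libraries. None of these markers was at 0 in all libraries. Single markers differed: Atoh1 (wild-type 75.3 to 127, mutant 137 to 172 CPM) and Gli1 (153 to 216, 220 to 254 CPM) were higher in every mutant. Sfrp1 (666 to 838, 444 to 664 CPM) was lower in every mutant. Over all tested genes, 13.1% separated the groups upward in the mutants and 11.9% downward. Xist divided the libraries by sex, with wild-type replicate 3 and mutant replicates 1 and 2 female and the other 3 male, so each group held libraries of both sexes and of at least 2 animals.

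Cdkn1c was the inhibitor with the largest difference, at 3.98 times the wild-type level in mutant tumours, and Cdkn1a followed among the well-counted members at 1.52 times. Both were higher in all 3 mutants than in every wild-type library. Cdkn2c showed the same separation with a small difference. Cdkn1b, the most abundant inhibitor, Cdkn2d and Cdkn2b overlapped between the groups in CPM. On the length-scaled TPM scale used below, Cdkn1b was lower in all 3 mutants than in every wild-type library. Cdkn2a was at or below 1 CPM in every library of either genotype. The main test, edgeR's quasi-likelihood test with Benjamini-Hochberg adjustment, called 0 of the 7 members at 0.05, and also 0 of all 19145 genes it tested, a background of 0%. DESeq2, run as another test, called 2 members higher (Cdkn1a and Cdkn1c) and 0 lower, against 2.96% of its tested genes higher and 2.26% lower. At an unadjusted edgeR p under 0.05, 4 members were higher (Cdkn1a, Cdkn1c, Cdkn2a and Cdkn2c) and 0 were lower, where the background was 9.29% higher and 8.78% lower. In CPM, 3 of 7 members had groups that did not overlap and were higher in the mutants, against 13.1% of tested genes. Groups that did not overlap and were lower were found for 0 of 7, against 11.9%. All 7 passed the filter on low counts, and Cdkn2a passed it through the mutant libraries. The median log2 fold change of the members was 0.25, beside -0.01 over all genes tested.

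Levels can be set against each other only per length, and TPM, a length-scaled transcript abundance, gives that scale. In wild-type tumours Cdkn1b stood first at 191 ± 9.94 TPM (mean ± SD, n = 3), followed by Cdkn2c at 55.9 ± 6.77 TPM. Cdkn2d at 31.8 ± 4.88 TPM and Cdkn1a at 24.1 ± 4.0 TPM came next and overlapped, since wild-type replicate 1 had 27.1 TPM of Cdkn2d and wild-type replicate 3 had 27.3 TPM of Cdkn1a. Cdkn1c followed at 11.8 ± 2.44 TPM, and Cdkn2b (1.94 ± 0.783 TPM) and Cdkn2a (0.778 ± 0.505 TPM) were last, without overlap between them.

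The order in the mutants was different below the first places. Cdkn1b was at 163 ± 16.6 TPM and Cdkn2c at 66.6 ± 3.81 TPM. Cdkn1c, at 44.8 ± 20.9 TPM, now had a mean above those of Cdkn1a (36.1 ± 4.44 TPM) and Cdkn2d (29.3 ± 1.79 TPM), although its 3 libraries spread from 30.4 to 68.8 TPM and overlapped the libraries of both Cdkn1a and Cdkn2c. Cdkn2b (2.11 ± 0.541 TPM) and Cdkn2a (1.67 ± 0.417 TPM) were again last and overlapped. The summed inhibitor level was 307, 325 and 321 TPM for the wild types and 317, 357 and 358 TPM for the mutants, so the groups overlapped. Cdkn1b made up 60.2% ± 2.57 of that sum in wild-type and 47.5% ± 4.0 in mutant libraries (SD, n = 3 each), with no overlap. Cdkn1a and Cdkn1c together made up 9.98%, 10.9% and 13.04% in the wild-type and 21.2%, 20.0% and 29.2% in the mutant libraries.

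**Figure D1:**
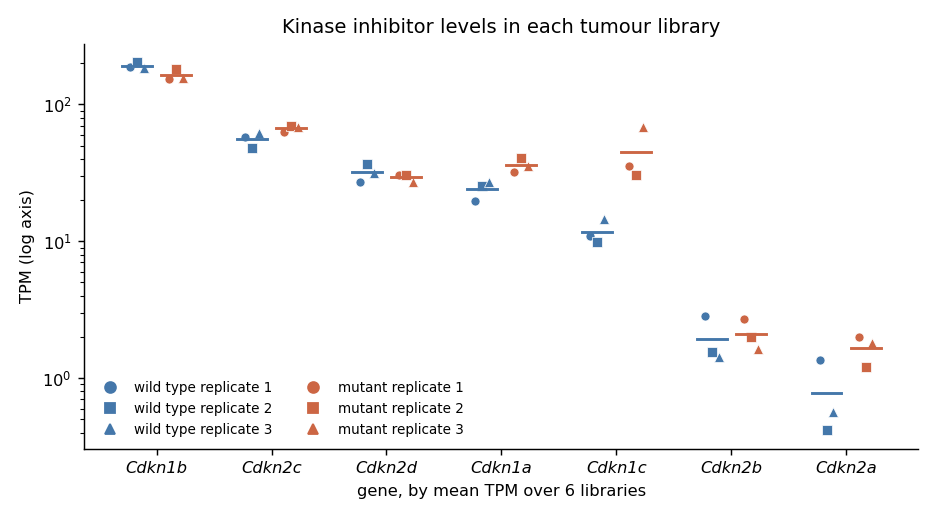
TPM of each inhibitor gene (log axis) in 3 wild-type (blue) and 3 mutant (orange) libraries, with a marker shape for each replicate number and a line at each group mean. Cdkn1b is highest and Cdkn2a lowest by mean. The wild-type and mutant points do not overlap for Cdkn1a, Cdkn1c and Cdkn2c, higher in the mutants, and for Cdkn1b, lower in the mutants.

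Cdkn1a encodes p21, the inhibitor through which p53 is best known to stop the cell cycle. It lies at chr17:29090976-29100727 on the plus strand (GRCm38, GENCODE M21). Its level was 21.3, 29.6 and 30.7 CPM for the wild types and 36.0, 47.3 and 40.9 CPM for the mutants. All mutants were above every wild-type library, and the lowest mutant exceeded the highest wild type by less than the range within either group. The edgeR log2 fold change was 0.60 (SE 0.162), with an adjusted p of 0.161. Cdkn1a rose in DESeq2 (log2 fold change 0.61, SE 0.179, adjusted p = 0.0216). That call was lost without wild-type replicate 1 (adjusted p = 0.0660) and without mutant replicate 1 (0.0582), 2 (0.164) or 3 (0.156), and it held without wild-type replicate 2 (0.0258) or 3 (0.0127). It was also lost with sex as a term (adjusted p = 0.138) or the file code as a term (0.187), a code of unstated meaning in the file names. With replicate number as a term the call held (DESeq2 adjusted p = 0.000511), although the numbers were not taken to pair the samples.

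Most Cdkn1a counts were assigned to the transcript Cdkn1a-201, at 538, 775 and 787 estimated counts in wild-type and 896, 1198 and 1056 in mutant libraries. Its groups did not overlap, with an edgeR log2 fold change of 0.60 (SE 0.183, adjusted p = 0.423 over 50890 transcripts). A minor transcript, Cdkn1a-202, had 1.78, 0 and 1.93 estimated counts in wild-type and 10.8, 10.6 and 7.18 in mutant libraries. These groups did not overlap either, but the transcript did not pass the filter on low counts and has no edgeR test. The third, Cdkn1a-203, had 6.98 to 25.5 estimated counts in wild-type and 19.2 to 30.7 in mutant libraries and overlapped. The versions of the 3 Cdkn1a transcripts in the files differ from those in M21, so their exons in the files could not be read from this annotation.

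In M21, Cdkn1a-202 begins at the distal start of the gene, upstream of the start of Cdkn1a-201. RefSeq promoter windows (250 bases before to 50 bases after a start, GRCm38.p6) were found for 6 of the 7 members, 9 windows in all. Cdkn1c had no window and was not searched. The 9 windows were searched only for CATGNNNNNNCATG, a form of the paired core of the p53 recognition sequence, which reads the same on both strands. Of all 32851 windows, 0.712% held it, and 1 of the 9 member windows did, the distal window of Cdkn1a. The stretch that holds it is shown because it is the only match among the member windows. It lies at chr17:29090908-29090967 (plus strand), the capitals mark the match, and the first base of the match is 48 bases before the start.
Cdkn1a distal promoter: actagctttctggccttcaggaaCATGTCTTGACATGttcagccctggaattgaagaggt
A match to letters is a description of the window, and no protein binding was measured in these libraries.

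Of p53 (Trp53) and 19 of its other targets, all 20 were tested. edgeR called 0 (9 higher and 2 lower at an unadjusted p under 0.05), DESeq2 called 5 higher (Trp53, Pmaip1, Btg2, Plk3 and Aen) and 2 lower (Sesn1 and Gadd45a), and the list's median log2 fold change was 0.24. Trp53 was at 134, 118 and 133 CPM in wild-type and 157, 154 and 156 CPM in mutant libraries, with no overlap (edgeR log2 fold change 0.28, SE 0.0655, adjusted p = 0.149). Pmaip1, encoding the cell death protein Noxa, had the highest value of the list at 2.93, 3.06 and 6.51 CPM in wild-type and 9.40, 8.22 and 12.03 CPM in mutant libraries (edgeR log2 fold change 1.24, SE 0.332, adjusted p = 0.161). Gadd45a, a growth arrest gene that p53 can induce, had the lowest value, at 19.1, 18.1 and 17.5 CPM in wild-type and 11.3, 11.7 and 12.7 CPM in mutant libraries (edgeR log2 fold change -0.61, SE 0.0970, adjusted p = 0.116). Mdm2, the p53 ligase and a p53 target, was at 80.6 to 90.2 CPM in wild-type and 82.2 to 88.2 CPM in mutant libraries and overlapped. The list held members in both directions. Over all tested genes, 9.29% were higher and 8.78% lower at an unadjusted edgeR p under 0.05. DESeq2 called 2.96% of its tested genes higher and 2.26% lower.

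Cdkn1c encodes p57 and lies at chr7:143458339-143461050 on the minus strand. Its level was 11.4, 9.20 and 15.5 CPM for the wild types and 39.0, 31.4 and 73.2 CPM for the mutants. Every mutant library was above every wild-type library by more than the range of the wild types, and mutant replicate 3 stood well above the other mutants. The edgeR log2 fold change was 1.99 (SE 0.345), with an unadjusted p of 0.000645 and an adjusted p of 0.130. Among all genes tested, 0.428% had a higher log2 fold change. Cdkn1c rose in DESeq2 (log2 fold change 1.99, SE 0.308, adjusted p = 9.20e-08), and this call held when any 1 of the 6 libraries was left out, with a largest adjusted p of 0.0150. Without mutant replicate 3 the edgeR log2 fold change was 1.55.

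**Figure D2:**
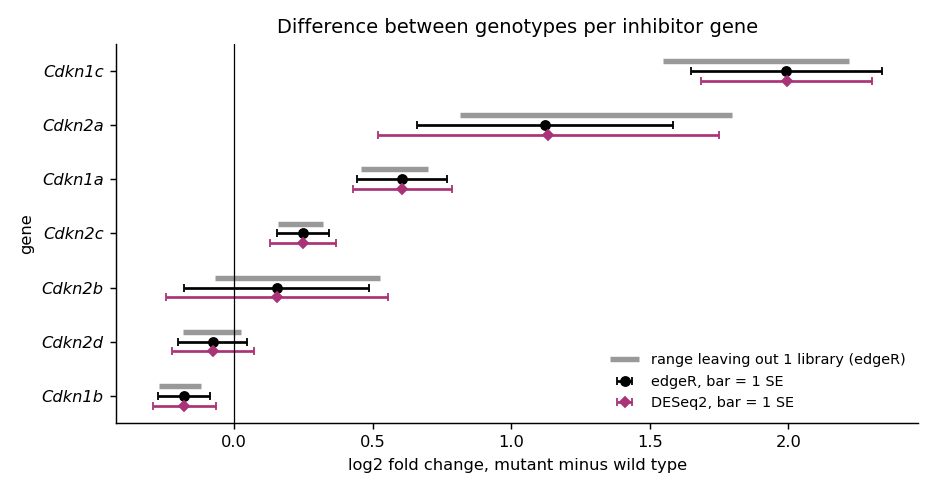
Log2 fold change (mutant minus wild type) of each inhibitor gene from edgeR (black) and DESeq2 (purple), with bars of 1 SE, and the range of the edgeR value when each of the 6 libraries is left out in turn (grey). Cdkn1c lies at 1.99 and its grey range starts at 1.55, whereas the ranges of Cdkn2b and Cdkn2d cross 0.

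Counts of Cdkn1c were divided between 2 long transcripts. Cdkn1c-201 had 58.8, 81.4 and 347 estimated counts in wild-type and 570, 539 and 966 in mutant libraries, and it rose in DESeq2 (log2 fold change 2.11, SE 0.630, adjusted p = 0.0383). It was the only one of the 15 member transcripts passing the filter that DESeq2 called, where 1.51% of all transcripts were called higher. Cdkn1c-202 had 231, 147 and 53.8 estimated counts in wild-type and 419, 242 and 905 in mutant libraries (DESeq2 log2 fold change 1.88, SE 0.608, adjusted p = 0.0680), also without overlap. edgeR called 0 of the 15 member transcripts it tested and 0 of all 50890 tested, where its smallest adjusted p was 0.214. At an unadjusted edgeR p under 0.05, 5 of these 15 were higher and 1 was lower, beside 5.1% and 4.71% of all tested transcripts.

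The balance of these transcripts differed strongly within the wild-type group. Cdkn1c-201 was the lesser in wild-type replicates 1 and 2 and the greater in wild-type replicate 3, and it was the greater in all 3 mutants. The 2 transcripts differ in the length of the first exon (198 and 144 bases) and the second (884 and 922 bases). Only 80 of the 1871 stretches of 31 bases in Cdkn1c-201, and 67 of 1858 in Cdkn1c-202, occur in no other transcript of the gene, so few reads could tell them apart. In edgeR the log2 fold change of Cdkn1c-201 went from 2.11 to 3.32 without wild-type replicate 3, and that of Cdkn1c-202 from 1.87 to 1.22 without mutant replicate 3. The gene total does not depend on this division. A short transcript, Cdkn1c-205, had 12.7, 4.74 and 0 estimated counts in wild-type and 26.1, 22.8 and 59.0 in mutant libraries. Cdkn1c-204 had at most 9.59 in wild-type and 11.7 in mutant libraries. Cdkn1c-203 never reached 3 counts. The antisense gene Gm44732, which overlaps Cdkn1c, had at most 6.45 estimated counts in any library, against at least 243 for Cdkn1c.

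**Figure D3:**
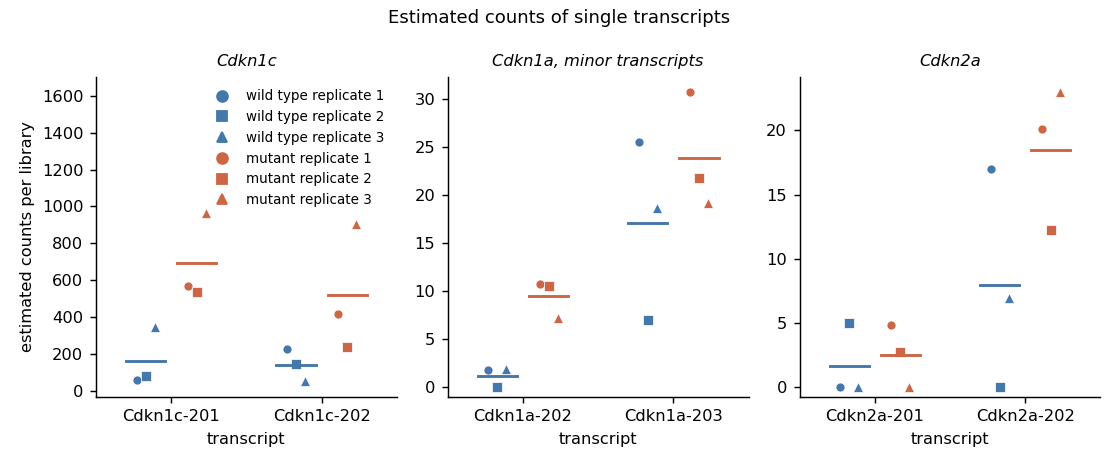
Estimated counts per library of single transcripts of Cdkn1c, of the minor transcripts of Cdkn1a and of Cdkn2a, in wild-type (blue) and mutant (orange) libraries, with lines at group means and a separate linear axis for each gene. Cdkn1c-201, Cdkn1c-202 and Cdkn1a-202 separate the groups, while both Cdkn2a transcripts overlap at 23 counts or fewer.

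Cdkn1c sits in an imprinted cluster under the control of Kcnq1ot1, a long noncoding RNA made from the paternal chromosome. Of 14 neighbours in the list, 11 were tested, and neither edgeR nor DESeq2 called any, although DESeq2 gave no adjusted p for Tspan32. At an unadjusted edgeR p under 0.05, 0 were higher and 1 was lower (Tspan32), beside 9.29% and 8.78% of all tested genes. Tspan32 passed the filter on low counts through the wild-type libraries, the group where it was higher. The median log2 fold change of the neighbours was 0.01. Kcnq1ot1 was at 64.9, 58.1 and 69.6 CPM in wild-type and 62.4, 63.3 and 57.0 CPM in mutant libraries, with overlap (edgeR log2 fold change -0.08, SE 0.0856, adjusted p = 0.667). The potassium channel gene Kcnq1 had the highest value at a low level, 0.302 to 1.06 CPM in wild-type and 0.921 to 1.42 CPM in mutant libraries (edgeR log2 fold change 0.67, SE 0.426, adjusted p = 0.433). Tspan32, a tetraspanin gene, had the lowest, with 0.448 to 0.852 CPM in wild-type and 0.212 to 0.305 CPM in mutant libraries (edgeR log2 fold change -1.20, SE 0.390, adjusted p = 0.199). Nap1l4, Cd81, Tssc4, Osbpl5, Tnfrsf22, Tnfrsf23, Dhcr7 and Cars lay between these. Phlda2, which like Cdkn1c is expressed from the maternal allele, was at 0 in all 6 libraries, and Slc22a18 and Ascl2 were too low to test. Allele of origin was not measured.

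The coding genes whose log2 CPM was most like that of Cdkn1c over the 6 samples, among 11648 compared, were Igf2 (Pearson r = 0.9950) and Gpr161 (r = 0.9894). These points share the division into genotypes, so a high r is given as a description. Igf2, a growth factor gene of the adjacent imprinted domain, was at 152, 128 and 196 CPM in wild-type and 335, 273 and 556 CPM in mutant libraries. DESeq2 called it higher (log2 fold change 1.29, adjusted p = 7.60e-05), and edgeR did not (adjusted p = 0.144). Its libraries ran in the same order as those of Cdkn1c in both groups.

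Skeletal muscle markers moved in the same libraries. Of 15 such markers, 14 were tested, and the median log2 fold change was 3.30. DESeq2 called 10 higher and 0 lower, beside 2.96% and 2.26% of its tested genes, which is also the background for the markers below. edgeR called 0, with 12 higher and 0 lower unadjusted, beside 9.29% and 8.78%. Chrng, at 0, 0.0757 and 0.190 CPM in wild-type libraries, passed the filter on low counts through the mutants. Myog (0.189 and 0.0379 CPM) and Mymk (0.151 and 0.0757 CPM) were also low in wild-type replicates 1 and 2. The summed level of the 15 markers was 61.9, 65.1 and 114 CPM in the wild-type and 194, 145 and 479 CPM in the mutant libraries. Myod1 made up most of the wild-type sum and overlapped between groups (50.3 to 81.5 and 48.0 to 71.9 CPM), whereas the embryonic myosin gene Myh3 was at 0.755, 0.757 and 5.78 CPM in wild-type and 36.8, 15.2 and 120 CPM in mutant libraries. None of the 15 was at 0 in all libraries. Mutant replicate 3 had the highest Cdkn1c and the highest muscle sum, and wild-type replicate 3 had the highest of both in its group. The 8 oligodendrocyte markers moved the other way, and DESeq2 called all 8 lower (546 to 1525 CPM summed in wild-type, 350 to 430 CPM in mutant libraries). Differentiated granule neuron markers (10 tested, median log2 fold change -0.74) and Purkinje cell markers (6 tested, -0.72) each had 2 called lower by DESeq2, with summed levels of 583 to 959 against 486 to 670 CPM and 591 to 962 against 391 to 554 CPM. Endothelial markers (7 tested, median 0.37) and pericyte and smooth muscle markers (7 tested, 0.28) each had 2 called higher, with summed levels of 112 to 151 against 164 to 169 CPM and 162 to 201 against 219 to 255 CPM, without overlap. Microglia and fibroblast markers each had 1 called lower, and astrocyte markers had 0 called. The fibroblast sum was 530 to 567 CPM in wild-type and 414 to 486 CPM in mutant libraries, without overlap. The microglia and astrocyte sums overlapped. The part of other cell types in the Cdkn1c and Cdkn1a results was not tested, and in bulk samples fewer cells of a type and less RNA per cell cannot be told apart.

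**Figure D4:**
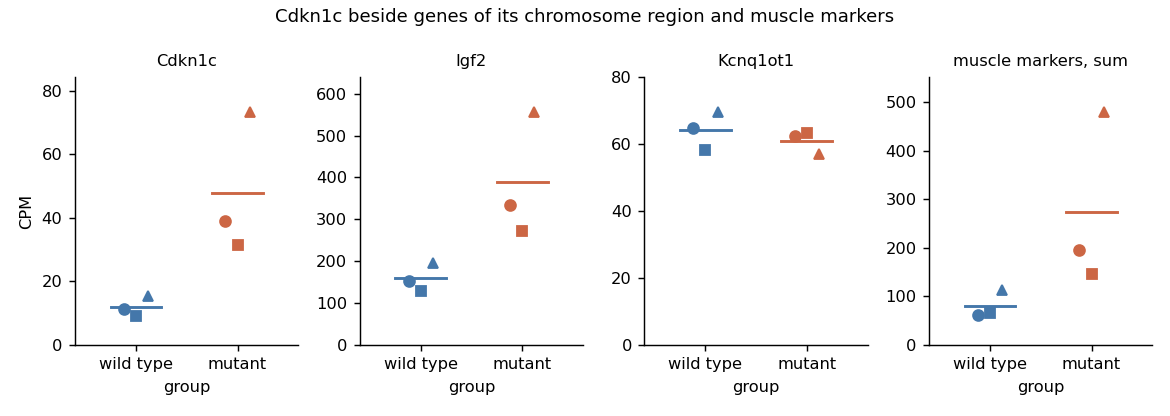
CPM in 3 wild-type (blue) and 3 mutant (orange) libraries of Cdkn1c, Igf2, Kcnq1ot1 and the sum of 15 skeletal muscle markers, each on its own linear axis from 0, with lines at group means. Mutant replicate 3 (triangle) is highest for Cdkn1c, Igf2 and the muscle sum, and Kcnq1ot1 overlaps between the groups.

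Cdkn1b encodes p27 and lies at chr6:134920401-134925513 on the plus strand. It was at 305, 346 and 306 CPM for the wild types and at 267, 314 and 262 CPM for the mutants. In CPM, mutant replicates 1 and 3 were below every wild-type library and mutant replicate 2 lay within their range. In TPM the groups did not overlap, at 187, 202 and 184 for the wild types and 152, 182 and 155 for the mutants. The edgeR log2 fold change was -0.18 (SE 0.0938, adjusted p = 0.349), and DESeq2 did not call it (adjusted p = 0.418). Of its 3 transcripts, Cdkn1b-203 separated the groups, at 1240, 1146 and 1265 estimated counts in wild-type and 1040, 1072 and 859 in mutant libraries (edgeR log2 fold change -0.28, SE 0.110, adjusted p = 0.497). Cdkn1b-202, the most counted at 4119 to 5658, and Cdkn1b-201, at 1571 to 2331, overlapped. No stretch of 31 bases in Cdkn1b-201 is its own within the gene, so its share of the counts rests on the estimation step.

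The p27 protein is removed through the ligase subunit Skp2, and the gene is a target of Foxo factors. Of 8 genes for p27 turnover and transcription, all were tested, and the median log2 fold change was 0.13. edgeR called 0, with 2 higher and 1 lower unadjusted, beside 9.29% and 8.78% of all tested genes. DESeq2 called 1 higher (Foxo1) and 0 lower, beside 2.96% and 2.26%. Foxo1 was at 25.4, 19.6 and 26.7 CPM in wild-type and 47.2, 30.8 and 44.5 CPM in mutant libraries (edgeR log2 fold change 0.77, SE 0.186, adjusted p = 0.152). Foxo3 had the lowest value of the list, at 111 to 128 CPM in wild-type and 96.3 to 102 CPM in mutant libraries (edgeR log2 fold change -0.23, SE 0.0729, adjusted p = 0.195). Skp2 was at 75.3 to 97.8 CPM in wild-type and 106 to 113 CPM in mutant libraries without overlap, and DESeq2 did not call it (log2 fold change 0.31, adjusted p = 0.111). The genes nearest in pattern to Cdkn1b were Mmp28 (r = 0.9974) and Nhsl1 (r = 0.9964), over 6 samples.

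Cdkn2a lies at chr4:89274471-89294653 on the minus strand, with 11646 bases between it and Cdkn2b. It has separate first exons for p16Ink4a (transcript Cdkn2a-201) and p19Arf (Cdkn2a-202), joined to the same second exon and read in different frames. The coding parts of the first exons are shown because they are what tells the products apart in RNA, and the capitals mark the start codon (GRCm38, minus strand, chr4:89281986-89282111 for p16Ink4a and chr4:89294334-89294523 for p19Arf).
Cdkn2a-201: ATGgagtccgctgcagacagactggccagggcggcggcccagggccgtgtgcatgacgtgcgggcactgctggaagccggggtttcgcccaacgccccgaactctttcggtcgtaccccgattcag
Cdkn2a-202: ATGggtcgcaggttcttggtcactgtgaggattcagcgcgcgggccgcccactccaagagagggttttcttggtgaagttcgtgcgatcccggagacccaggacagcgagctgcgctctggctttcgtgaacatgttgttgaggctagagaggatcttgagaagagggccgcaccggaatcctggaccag
These exon parts are 126 and 190 bases long with a GC content of 67.5% and 58.9%. The promoter window of the p19Arf start held 45 CG dinucleotides, and 1.65% of all windows held more. The window of the p16Ink4a start held 12, beside a median of 7 over all windows.

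Cdkn2a was the least abundant member by mean, with 17, 5 and 7 estimated counts for the wild types and 25, 15 and 23 for the mutants. On the CPM scale the libraries lay at 0.642, 0.189 and 0.266 in the wild-type and 0.960, 0.576 and 0.870 in mutant libraries. The groups overlapped, since wild-type replicate 1 was above mutant replicate 2. The edgeR log2 fold change was 1.12 (SE 0.464, unadjusted p = 0.0455, adjusted p = 0.270), and DESeq2 gave an adjusted p of 0.318. Without wild-type replicate 1 the edgeR log2 fold change was 1.79 and was not called. Neither test called a difference, and every library held at most 25 counts of the gene.

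The p19Arf transcript had 17, 0 and 7 estimated counts in wild-type and 20.1, 12.3 and 23 in mutant libraries. The p16Ink4a transcript had 0, 5 and 0 in wild-type and 4.89, 2.73 and 0 in mutant libraries and did not pass the filter. As a share of rounded Cdkn2a counts, p16Ink4a was 0% of 17 counts in wild-type replicate 1 (exact Clopper-Pearson interval 0 to 19.5%), 100% of 5 in replicate 2 (47.8 to 100%) and 0% of 7 in replicate 3 (0 to 41.0%). In the mutants it was 20% of 25 (6.83 to 40.7%), 20% of 15 (4.33 to 48.1%) and 0% of 23 (0 to 14.8%), and the intervals, at 95%, cover counting error only. The mean share from unrounded counts was 33.3% ± 57.7 in wild-type and 12.6% ± 10.9 in mutant libraries (SD, n = 3 each). The exact two-sided permutation test gave p = 1, where 3 samples against 3 cannot give less than 0.1. The wild-type mean rests on replicate 2 alone.

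Of 20 regulators of the Cdkn2a locus, Polycomb subunits included, all were tested, and the median log2 fold change was 0.16. edgeR called 0, with 6 higher and 1 lower unadjusted, beside 9.29% and 8.78% of all tested genes. DESeq2 called 3 higher (Bmi1, Rnf2 and Ets1) and 0 lower, beside 2.96% and 2.26%. Bmi1, a subunit of Polycomb repressive complex 1 known for repressing Cdkn2a, was at 230, 227 and 265 CPM in wild-type and 340, 346 and 312 CPM in mutant libraries (edgeR log2 fold change 0.47, SE 0.0827, adjusted p = 0.130). Twist1, a transcription factor gene, had the highest value at a low level, 0.379 to 0.418 CPM in wild-type and 0.653 to 1.11 CPM in mutant libraries (edgeR log2 fold change 1.19, SE 0.293, adjusted p = 0.153). Ets2, which encodes an activator of p16Ink4a, had the lowest, at 51.3 to 53.5 CPM in wild-type and 40.7 to 47.3 CPM in mutant libraries (edgeR log2 fold change -0.21, SE 0.0776, adjusted p = 0.230).

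Cdkn2b encodes p15, lies at chr4:89306299-89311039 on the minus strand, and had 58, 32 and 29 estimated counts in wild-type and 56, 41 and 34 in mutant libraries. On the CPM scale the libraries lay at 2.19, 1.21 and 1.10 in the wild-type and 2.15, 1.58 and 1.29 in mutant libraries. The groups overlapped over most of their range (edgeR log2 fold change 0.15, SE 0.332, adjusted p = 0.840). Replicate 1 was highest in either group. Its value was below 0 without wild-type replicate 3 or without mutant replicate 1. The files hold a single transcript of the gene, Cdkn2b-201.

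Of 7 other genes around Cdkn2a and Cdkn2b, all were tested, and neither edgeR nor DESeq2 called any. The median log2 fold change was 0.00. At an unadjusted edgeR p under 0.05, 0 were higher and 1 was lower (Elavl2), beside 9.29% and 8.78% of all tested genes. Mtap, which encodes an enzyme of methionine salvage and adjoins Cdkn2a, was at 29.5 to 43.7 CPM in wild-type and 42.1 to 48.3 CPM in mutant libraries (edgeR log2 fold change 0.29, SE 0.147, adjusted p = 0.346). Hacd4 had the lowest value, at 6.35 to 9.89 CPM in wild-type and 4.97 to 5.81 CPM in mutant libraries (edgeR log2 fold change -0.47, SE 0.202, adjusted p = 0.279). Dmrta1, Klhl9, Elavl2, Mllt3 and Focad lay between. The genes nearest in pattern were Kif21a (r = 0.9985) and Ddx54 (r = 0.9951) for Cdkn2a and Klhdc4 (r = 0.9897) and Arhgap31 (r = 0.9814) for Cdkn2b.

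Cdkn2c encodes p18, a partner of Cdk4 and Cdk6 whose loss is known to promote medulloblastoma in mice, and lies at chr4:109660876-109667189 on the minus strand. It was at 60.5, 51.4 and 64.5 CPM for the wild types and at 67.3, 73.1 and 68.9 CPM for the mutants. All mutants were above every wild-type library, by a narrow margin over wild-type replicate 3. The edgeR log2 fold change was 0.25 (SE 0.0938, unadjusted p = 0.0333, adjusted p = 0.241), DESeq2 did not call it (adjusted p = 0.233), and 15.6% of tested genes had a higher log2 fold change. Both of its transcripts separated the groups. Cdkn2c-201 had 393, 328 and 409 estimated counts in wild-type and 427, 494 and 515 in mutant libraries, and Cdkn2c-202 had 1209, 1030 and 1288 in wild-type and 1327, 1409 and 1308 in mutant libraries. The nearest genes in pattern were Rpa1 (r = 0.9951) and Clspn (r = 0.9948), both of DNA replication and its checkpoint.

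Cdkn2d encodes p19Ink4d and lies at chr9:21288410-21291407 on the minus strand. It was at 20.7, 27.8 and 24.9 CPM in wild-type and 23.5, 24.6 and 21.4 CPM in mutant libraries. The mutant libraries all lay within the wild-type range (edgeR log2 fold change -0.08, SE 0.124, adjusted p = 0.773). Its transcripts overlapped too, with Cdkn2d-203 at 375 to 489 estimated counts in wild-type and 409 to 452 in mutant libraries. Cdkn2d-201 was at 161 to 235 and 147 to 189, and Cdkn2d-202 at 0 to 25.4 and 0 to 18.7. The nearest genes in pattern were Tmem60 (r = 0.9871) and Clk3 (r = 0.9855). For Cdkn1a they were Cdc34 (r = 0.9875), a ubiquitin-conjugating enzyme gene, and Mtfr1 (r = 0.9771).

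The kinases and cyclins on which the inhibitors act were read beside them. Of 9 G1 cyclins and the kinases they bind, all were tested, and the median log2 fold change was 0.29. edgeR called 0, with 6 higher and 0 lower unadjusted, beside 9.29% and 8.78% of all tested genes. DESeq2 called 3 higher (Ccnd1, Ccnd3 and Ccne1) and 0 lower, beside 2.96% and 2.26%. Ccnd1, a D-type cyclin and hedgehog target, was at 493, 251 and 435 CPM in wild-type and 729, 579 and 623 CPM in mutant libraries (edgeR log2 fold change 0.71, SE 0.237, adjusted p = 0.205). Ccnd2, the D-type cyclin of granule progenitors, had the lowest value, at 679, 766 and 857 CPM in wild-type and 519, 815 and 515 CPM in mutant libraries, with overlap (edgeR log2 fold change -0.32, SE 0.193, adjusted p = 0.417).

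Of 11 Rb and E2f family genes, the repressors and activators downstream of the kinases, all were tested, and the median log2 fold change was 0.11. edgeR called 0, with 4 higher and 1 lower unadjusted, beside 9.29% and 8.78% of all tested genes. DESeq2 called 1 higher (Rbl1) and 0 lower, beside 2.96% and 2.26%. Rbl1, encoding p107, was at 65.5, 56.0 and 71.2 CPM in wild-type and 86.7, 93.8 and 81.0 CPM in mutant libraries (edgeR log2 fold change 0.44, SE 0.103, adjusted p = 0.149). E2f1 had the lowest value, at 93.1 to 102 CPM in wild-type and 85.0 to 89.6 CPM in mutant libraries (edgeR log2 fold change -0.15, SE 0.0611, adjusted p = 0.269).

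Of 16 proliferation genes, all were tested, and edgeR called 0, with 7 higher and 0 lower unadjusted, beside 9.29% and 8.78% of all tested genes. DESeq2 called 2 higher (Plk1 and Aurka) and 0 lower, beside 2.96% and 2.26%. The median log2 fold change was 0.25, the same to 2 decimals as that of the inhibitors. Aurkb, a mitotic kinase gene, had the highest value, at 49.0 to 67.6 CPM in wild-type and 71.8 to 79.5 CPM in mutant libraries (edgeR log2 fold change 0.39, SE 0.119, adjusted p = 0.186). Cdk1 had the lowest, at 87.8 to 113 CPM in wild-type and 108 to 119 CPM in mutant libraries (edgeR log2 fold change 0.18, SE 0.0991, adjusted p = 0.382).

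**Figure D5:**
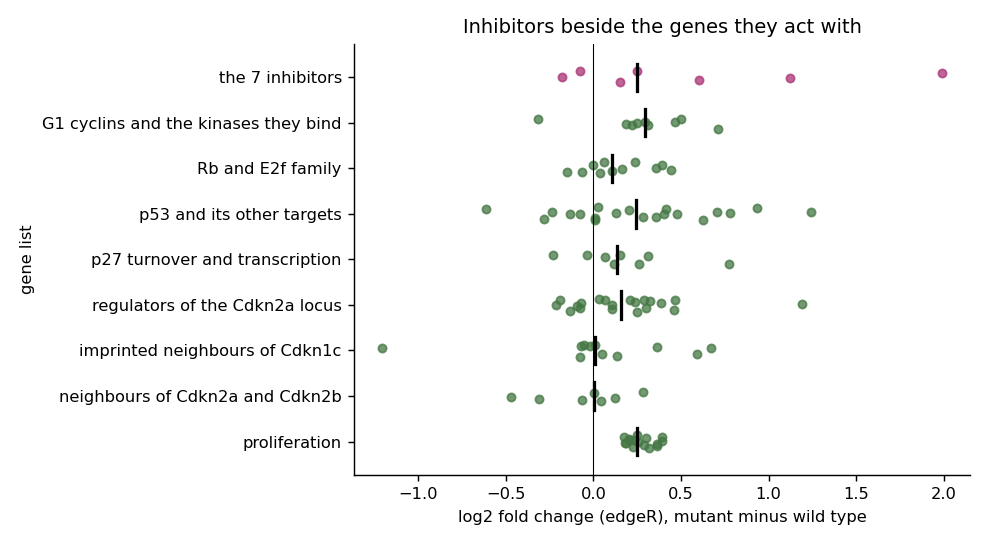
The edgeR log2 fold change (mutant minus wild type) of each tested gene (points, with vertical scatter for legibility only) of the 7 inhibitors and of 8 gene lists, with a black line at each median. The inhibitors spread from -0.18 to 1.99, and the 16 proliferation genes lie between 0.18 and 0.39.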

How the data were processed

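Total RNA from 6 mouse medulloblastoma samples was sequenced, 3 per Eed genotype. The deposited files hold estimated counts and TPM per transcript in 1 file per sample, per the file headers. The authors made them with kallisto 0.43.1, per the submitters' processing notes, which also list GRCm38 and mm10. The GENCODE release, strand and read length are not given in the sources used here. Reads of a gene and of its antisense partner therefore cannot be told apart. A code in each file name has no stated meaning and was used only as a term in an added fit.

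Estimated counts were summed per gene and rounded. edgeR 4.0.16 in R 4.3.3 (TMM, default expression filter, quasi-likelihood F-test) was fitted to all genes and, separately, to all transcripts, with Benjamini-Hochberg adjustment over everything tested and a threshold of 0.05. CPM values use TMM factors. DESeq2 1.42.0 and limma 3.58.1 gave alternatives. The fits were tested on simulated data. Adjusted p-values that DESeq2 gave as missing were kept missing. DESeq2 terms for file code, sex and replicate number, and its fits with 1 library left out, were chosen after seeing the data. The members and gene lists were chosen with earlier results of these data known.

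Named genes were all members and their transcripts with at least 3 estimated counts in a library, the highest and lowest log2 fold change of each pathway list, the tested neighbours of Cdkn1c, Cdkn2a and Cdkn2b, and the 2 coding genes (mean of at least 5 CPM) with the highest Pearson r of log2 CPM (prior count 2) with each member over 6 samples. Trp53, Mdm2, Skp2, Bmi1, Eed, Atoh1, Gli1, Sfrp1, Myod1, Myh3, Chrng, Myog and Mymk were chosen after their values were seen. So were the genes listed only as called by DESeq2. Coordinates are from GENCODE M21 on GRCm38, in which 15 of the 19 transcripts have the same version as in the files. Promoter windows are from RefSeq (GRCm38.p6), and first exons were read from the GENCODE M21 transcript sequences, with their coordinates on GRCm38.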

Additional observations from a re-analysis of the deposited data

How the results depend on the processing

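The directions of Cdkn1a, Cdkn1b, Cdkn1c and Cdkn2c held under all 18 alternatives of the gene fit. That of Cdkn2a held under 17, since it did not pass the stricter CPM filter, and those of Cdkn2b and Cdkn2d did not hold when single libraries were left out. edgeR called 0 members, DESeq2 called 2 (log2 fold change 0.61 for Cdkn1a and 1.99 for Cdkn1c), and the replicate block called 1 (Cdkn1c, 1.93, adjusted p = 0.0160). Same-numbered libraries correlated at 0.227, 0.0624 and -0.135 in their deviations from the group means, so the numbers were not taken to pair the samples. With the replicate block edgeR called 273 of all genes against 0. Leaving out 1 library gave -0.070 to 0.53 for Cdkn2b, -0.19 to 0.025 for Cdkn2d and -37.4 to 12.6 percentage points for the difference in p16Ink4a share, positive only without wild-type replicate 2. It gave -0.026 to 0.055 for Mdm2 and -0.25 to 0.019 for Eed, with the sign turned without wild-type replicate 1 for both, and without mutant replicate 3 (-0.011) for Mdm2. DESeq2 called 1 member with the file code or with sex as a term, 2 with the replicate block, and 1 to 2 when 1 library was left out. For Cdkn1a its log2 fold change was then 0.46 with the file code, 0.56 with sex, 0.61 with the replicate block, and 0.46 to 0.70 with 1 library left out. The cause was not tested. DESeq2 called 1 member transcript and 17 genes over the pathway lists, where edgeR called 0 of each. Cdkn2a and Cdkn2b had 58 counts or fewer per library, and what depth limits there was not tested.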
